A study of Mus musculus with 7 samples.

Results

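The BTB-domain adaptors of Cullin-3 ubiquitin ligases are described here in mouse mesenteric artery, in animals with and without a dominant-negative PPARγ in smooth muscle. Members were taken by name: every row of the array table annotated with exactly 1 gene symbol that begins with Klhl, Kbtbd, Btbd or Kctd and a number. This gave 54 of 23332 rows and 52 genes, of which 21 are Klhl, 17 Kctd, 9 Btbd and 5 Kbtbd genes. For Klhl25 and Klhl31, which had 2 rows each, the row with the higher mean over all 7 arrays was used. A further 2 rows that carry an adaptor symbol together with another gene's symbol were not members. The rule takes genes by symbol and uses no difference between genotypes, but it was set with earlier results of these data known.

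Each array held RNA from the mesenteric artery of 1 male mouse. The first group was 3 transgenic mice expressing human PPARγ with the P467L mutation from the smooth muscle myosin heavy chain promoter, called P467L here. The other was 4 non-transgenic littermates. The sources used here state neither age nor background strain, and the transgene is limited to the cells in which that promoter is active. The arrays are Affymetrix mouse exon 1.0 ST arrays, and values are log2 expression values made by RMA, which corrects background, equalises arrays and summarises probes into 1 value per row.

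Cullin-3 is the scaffold of a family of ubiquitin ligases. It does not touch its substrates directly: a BTB domain of an adaptor protein binds the cullin, and another part of the adaptor, such as the kelch propeller of the KLHL and KBTBD proteins, binds the protein to be ubiquitylated. In arteries the pathway is known for its control of RhoA, of the WNK kinases that govern ion transport, and of the phosphodiesterase that breaks down cyclic GMP, and mutations of Cullin-3 or of an adaptor can cause hypertension in humans. Not every protein with these symbols is known to work through Cullin-3, and some KCTD proteins are best known as subunits of a receptor.

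Array medians lay between 6.29 and 6.34 and lower quartiles between 5.26 and 5.29. Smooth muscle markers were bright, with Acta2 (smooth muscle actin) from 11.94 to 12.02 in P467L and from 11.97 to 12.08 in non-transgenic artery. Pparg itself was at 6.73, 6.77 and 6.48 in P467L artery, against 7.20, 6.49, 6.68 and 6.73 in non-transgenic artery. The groups overlapped, and since these probes may or may not read human sequence, this row is no check of the genotype labels. In whole vessel RNA, fewer cells of a type and less RNA per cell cannot be told apart. Of the adaptors, 28 had a mean above every array's median and 6 (Btbd11, Kbtbd8, Kbtbd12, Kctd4, Klhl1 and Klhl10) a mean below every array's lower quartile, and no detection calls were used.

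Promoter sequence was looked at because PPARγ, with its partner RXR, binds DNA at direct repeats of the hexamer AGGTCA spaced by a base. RefSeq windows on GRCm38.p6, 300 bases long and reaching 250 bases before the annotated start, were at hand for 41 of the 52 adaptors (62 windows). The full repeat, AGGTCA, a base of any kind and AGGTCA again, was found on either strand in 0 of these 62 windows, and in 13 of 32851 windows of all genes (0.0396%). So rare an exact match would mostly be absent from any 62 windows, so this count does not set the adaptors apart. A lone AGGTCA on either strand, which the repeat contains, was found in 5 windows of 4 adaptors (8.06% of the 62 windows, against 16.3% of all windows). Whether the remaining window holds a further site was not checked. A site from each of the 4 adaptors is shown with the hexamer, or its complement TGACCT, in capitals, within 30 bases on the gene's own strand.
Klhl23, chr2:69822390-69822419, plus strand: tgcctggattcagcctTGACCTaggctacc
Klhl4, chrX:114474160-114474189, plus strand: ttgtttaaggtcTGACCTcatcatcctgtc
Klhl13, chrX:23365045-23365074, minus strand: caccccctggtgAGGTCAggcggaggctct
Kctd7, chr5:130144866-130144895, plus strand: ctggaggcagccAGGTCAgaccagcgacta
The GC box GGGCGG, a motif of promoters that lack a TATA box, was more frequent: either strand held it in 43 of the 62 adaptor windows (69.4%), in 33 of the 41 genes, against 35.7% of all windows. The 250 bases before the start of Klhl2, the adaptor that varied most between arrays, show 3 of them in capitals.
Klhl2, chr8:64849925-64850174, minus strand: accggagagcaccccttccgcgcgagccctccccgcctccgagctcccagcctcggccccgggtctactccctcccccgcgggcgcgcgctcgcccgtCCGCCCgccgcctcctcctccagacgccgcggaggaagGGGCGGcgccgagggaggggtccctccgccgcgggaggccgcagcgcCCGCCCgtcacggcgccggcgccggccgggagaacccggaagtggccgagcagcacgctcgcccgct
A match to these letters is a description of the window and not a binding site, and binding was not measured.

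The first comparison asked whether any adaptor transcript differs when PPARγ is blocked in smooth muscle. None of the 52 passed: limma called 0 adaptors higher and 0 lower in P467L artery at an adjusted p of 0.05 over all rows, against 0% of all rows in each direction. At an unadjusted p of 0.05 it also listed 0 adaptors, against 3.1% of all rows (1.55% higher and 1.56% lower in P467L artery). The values of the groups overlapped in all 52 adaptors, against 2.57% of all rows without overlap. Means were higher in P467L artery for 24 adaptors, lower for 27 and equal for 1, with a median difference of -0.0042 on the log2 scale. Over all rows 47.7% were higher and 50.7% lower, with a median of -0.0025. The adaptors' differences ran from -0.23 (Klhl2) to 0.19 (Klhl38), and the smallest unadjusted p was 0.0910 (limma, adjusted p = 1). Differences are P467L minus non-transgenic throughout.

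How large a difference these arrays leave room for is shown by the 95% intervals of the fit. For 48 of the 52 adaptors the whole interval lay within 1.5-fold in either direction, against 68.9% of all rows and 87.5% of rows with 1 gene symbol. The 6 adaptors with a mean below every array's lower quartile are among these 48. Without detection calls, a narrow interval on so dim a row may not bound a change in the transcript. The 4 adaptors whose interval reached past 1.5-fold were Klhl2 (-0.86 to 0.41 on the log2 scale), Klhl28 (-0.54 to 0.71), Klhl31 (-0.51 to 0.87) and Klhl38 (-0.21 to 0.59). Precision is limited by there being 7 arrays. RMA can also return the same value for several arrays, which narrows an interval: 12 adaptors held 1 value on 4 or more arrays (23.1%, against 20.0% of all rows and 28.5% of rows with 1 symbol), and Btbd16 read 5.56 on all 7.

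**Figure D1:**
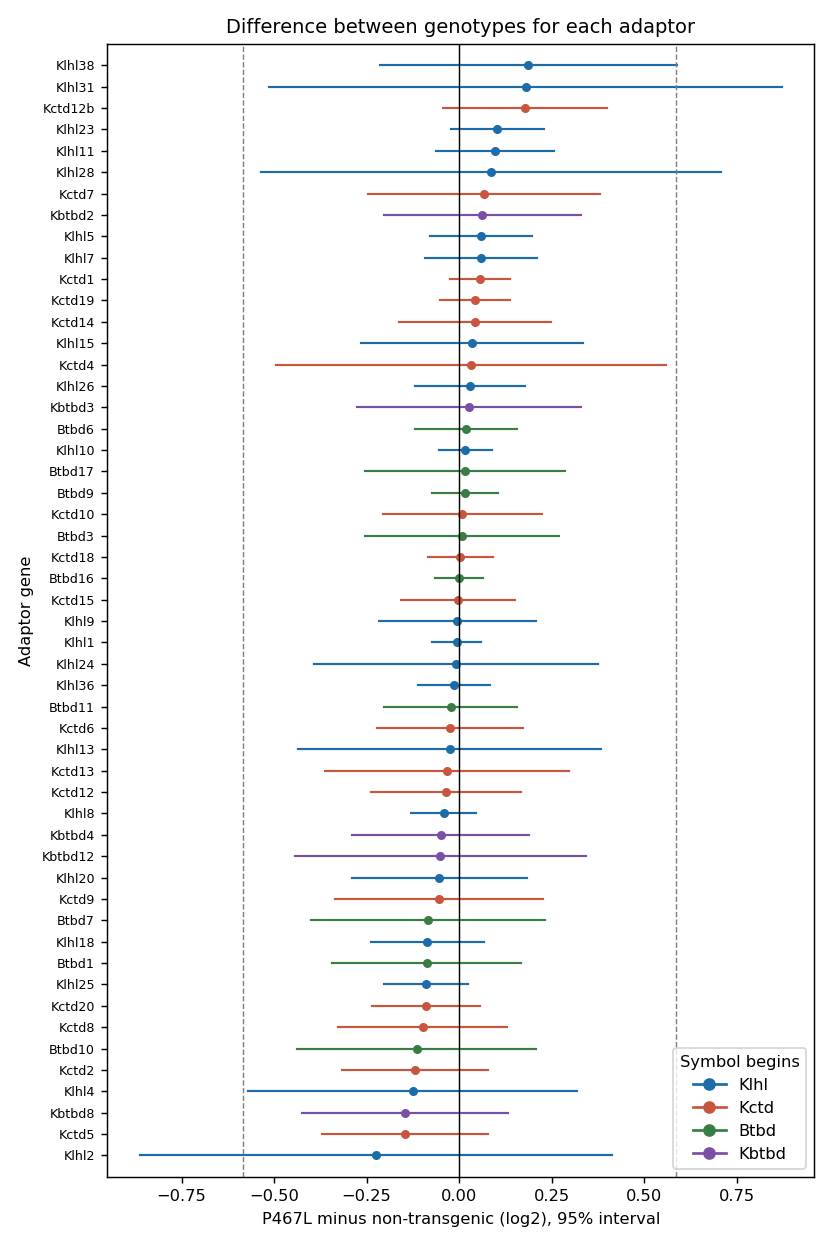
Each point is the difference of 1 adaptor, P467L minus non-transgenic mean on the log2 scale (horizontal axis), and each line its 95% interval from limma, coloured by the start of the symbol. Dashed lines mark 1.5-fold either way, and every interval includes 0.

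Kctd10 and Kctd13 belong to the adaptors that direct RhoA, the GTPase that sustains smooth muscle contraction, to Cullin-3. Kctd10 was at 6.91, 6.93 and 6.69 in P467L artery, against 6.97, 6.70, 6.84 and 6.83 in non-transgenic artery. Kctd13 was at 6.75, 6.66 and 6.53 in P467L artery, against 6.93, 6.53, 6.45 and 6.81 in non-transgenic artery. In both genes the P467L values lay inside the non-transgenic range or within 0.01 of it, and the differences were 0.0083 and -0.033. Their relative Tnfaip1, which has the same role under another symbol, differed by 0.034. Rhoa itself was at 9.01, 9.09 and 9.07 in P467L artery, against 9.10, 9.28, 9.27 and 9.07 in non-transgenic artery, a difference of -0.12 with overlap (limma, adjusted p = 1).

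Klhl20, which removes a RhoA exchange factor and the death-associated kinase DAPK1, was at 7.51, 7.63 and 7.22 in P467L artery, against 7.52, 7.51, 7.49 and 7.51 in non-transgenic artery. The non-transgenic mice hardly varied, and the P467L mice lay on both sides of them. The difference of -0.054 was 0.0625 without P467L replicate 3. Of its targets, Arhgef11 had equal means and Dapk1 differed by -0.023. Among the kelch proteins related to actin-binding KLHL1, Klhl1 differed by -0.0067, with 5.01 on 6 of 7 arrays, and Klhl5 by 0.060. Klhl4 differed by -0.13, and its highest value, 6.85, came from non-transgenic replicate 1, with 6.14 to 6.31 on all other arrays.

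Klhl2 is an adaptor that brings WNK kinases to Cullin-3, and it had the largest difference of the family. Its values were 6.53, 6.84 and 5.85 in P467L artery, against 7.0, 6.53, 6.49 and 6.51 in non-transgenic artery. The lowest array of all 7 was P467L replicate 3 and the highest was non-transgenic replicate 1, and the other 5 lay between 6.49 and 6.84. The difference was -0.23 ± 0.26 (standard error; limma, adjusted p = 1), and without P467L replicate 3 it was 0.0525. The kinases that WNKs activate, Stk39 and Oxsr1, differed by -0.060 and -0.0375. Klhl3 and the WNK genes were not analysed here.

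The G protein and GABA-B receptor group, in which KCTD8, KCTD12 and KCTD12b are auxiliary receptor subunits and KCTD5 removes G protein βγ subunits through Cullin-3, held 5 adaptors. Kctd12b was at 6.47, 6.62 and 6.36 in P467L artery, against 6.36, 6.15, 6.28 and 6.43 in non-transgenic artery. All 3 P467L values were at or above 6.36 and 3 of 4 non-transgenic values at or below it, so the groups overlapped, and the mean was 1.13-fold higher (95% interval 0.97-fold to 1.32-fold; limma, adjusted p = 1). Its relative Kctd12 averaged 7.78 ± 0.10 (SD, n = 3) in P467L and 7.82 ± 0.12 (SD, n = 4) in non-transgenic artery. Whether the 2 genes differ from each other was not tested.

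Kctd5 was at 6.28, 6.04 and 6.31 in P467L artery, against 6.31, 6.52, 6.31 and 6.29 in non-transgenic artery. P467L replicate 2 was the lowest array and non-transgenic replicate 2 the highest, and the other 5 values lay within 0.03 of each other. Kctd2, the closest relative of Kctd5, was at 5.95, 6.15 and 6.15 in P467L artery, against 6.15, 6.36, 6.15 and 6.15 in non-transgenic artery. Here 5 arrays shared 1 value, and the difference of -0.12 rested on P467L replicate 1 and non-transgenic replicate 2. Kctd8 differed by -0.099, and without P467L replicate 2 by 0.0075. The G protein subunit genes Gnb1 and Gnb2 differed by 0.011 and 0.022, and the receptor gene Gabbr1 by -0.012. Of the 5 adaptors in this group, 1 had a higher and 4 a lower mean.

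Adaptors tied to growth and insulin signalling included Klhl25, which turns over the translation inhibitor 4E-BP1 and had the smallest p among adaptors with lower means. It was at 6.18, 6.11 and 6.02 in P467L artery, against 6.18, 6.23, 6.18 and 6.18 in non-transgenic artery. In this row 4 arrays read 6.18, P467L replicate 1 among them, and P467L replicates 2 and 3 were lower. The difference was -0.089 (limma, 95% interval -0.20 to 0.024, adjusted p = 1). The other row of Klhl25 had more spread, with 6.12, 6.10 and 5.81 in P467L artery against 6.10, 6.34, 5.97 and 6.30 in non-transgenic artery, and differed by -0.17. Kctd20 and Btbd10, a related pair of proteins that bind the kinase Akt, differed by -0.091 and -0.115. The difference of Btbd10 was -0.010 without P467L replicate 3 and -0.033 without non-transgenic replicate 1. Kctd20 was at 7.14, 7.11 and 7.04 in P467L artery, against 7.30, 7.22, 7.11 and 7.12 in non-transgenic artery, so the upper P467L values met the lower non-transgenic ones. Kbtbd2 limits the amount of the PI3-kinase subunit p85α, the product of Pik3r1. Kbtbd2 differed by 0.0625, with 8.44 to 8.80 in P467L and 8.43 to 8.72 in non-transgenic artery. Pik3r1 was at 8.21, 8.45 and 7.90 in P467L artery, against 8.12, 7.64, 7.99 and 7.97 in non-transgenic artery, a difference of 0.26 with overlap (limma, adjusted p = 1).

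**Figure D2:**
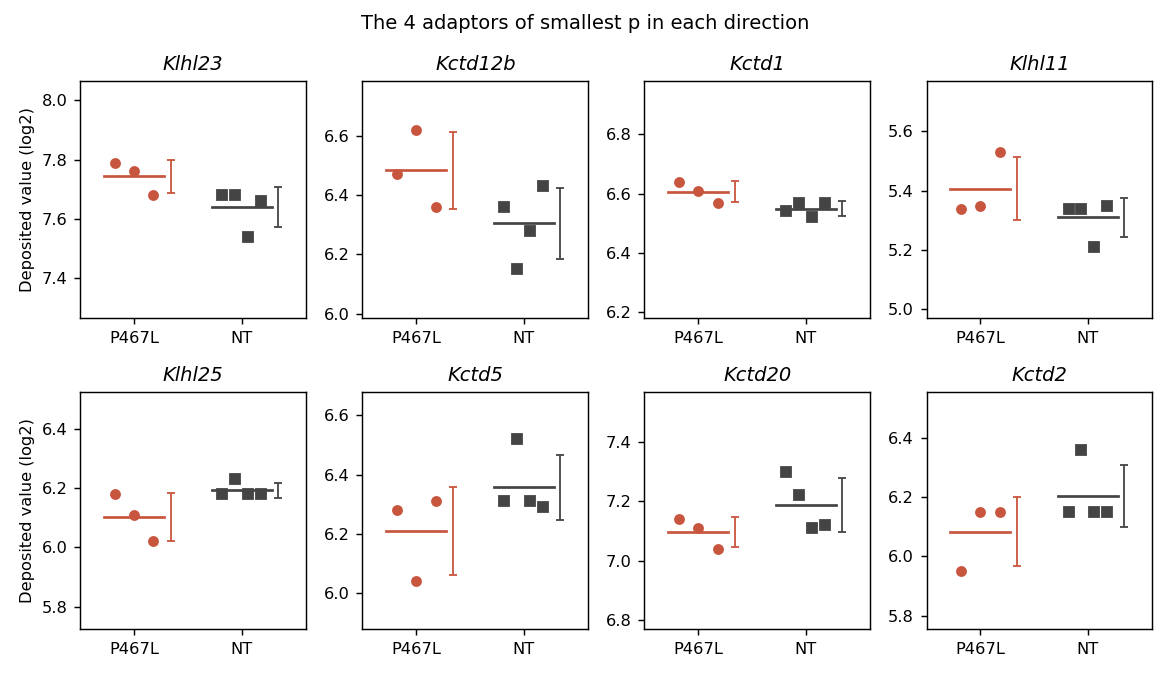
Deposited log2 values (vertical axis, 0.8 units in each panel) of the 4 adaptors with the smallest p among higher means (top row) and among lower means (bottom row), with P467L arrays as circles and non-transgenic (NT) arrays as squares. Horizontal lines are group means and bars 1 SD (n = 3 and n = 4), and the groups overlap or meet in every panel.

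Cell division and gene control make up a further group of adaptors. Klhl9 and Klhl13, which together guide Aurora B in mitosis, differed by -0.0050 and -0.026, and Klhl18, which acts on Aurora A, by -0.086. Klhl18 read 6.15 on 5 arrays, with 6.02 in P467L replicate 2 and 6.32 in non-transgenic replicate 2. Kctd1, which restrains the AP-2 transcription factors, was at 6.64, 6.61 and 6.57 in P467L artery, against 6.54, 6.57, 6.52 and 6.57 in non-transgenic artery. Its groups met at 6.57 and its mean was 1.04-fold higher (limma, adjusted p = 1). Kbtbd8, known for neural crest specification, differed by -0.15, with 4.25 to 4.33 in P467L and 4.26 to 4.67 in non-transgenic artery, and its targets Nolc1 and Tcof1 differed by 0.033 and -0.0067. Kbtbd4 differed by -0.050, and without P467L replicate 2 by 0.050.

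Among higher means the smallest p belonged to Klhl23, at 7.79, 7.76 and 7.68 in P467L artery, against 7.68, 7.68, 7.54 and 7.66 in non-transgenic artery. P467L replicates 1 and 2 were the highest arrays, and replicate 3 equalled 2 of the non-transgenic mice. The mean was 1.07-fold higher (95% interval 0.98-fold to 1.17-fold; limma, adjusted p = 1). Klhl11 differed by 0.097, with 5.53 in P467L replicate 3 and 5.21 to 5.35 on the other arrays. Its difference was 0.035 without P467L replicate 3 and 0.063 without non-transgenic replicate 3. Klhl7, mutated in a human retinal degeneration, differed by 0.058, and Kctd19, a meiosis gene, by 0.0425. Klhl8 differed by -0.042. The BTBD genes Btbd1, whose product binds topoisomerase I, and Btbd7, known for branching of epithelia, differed by -0.088 and -0.083, and Btbd9, linked to restless legs in humans, by 0.015.

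Adaptors of striated muscle were set beside striated muscle markers. Klhl31, which keeps skeletal muscle filaments in order, was at 6.74, 6.14 and 6.29 in P467L artery, against 6.89, 6.06, 5.95 and 5.94 in non-transgenic artery. P467L replicate 1 and non-transgenic replicate 1 stood high, and the other 5 arrays lay from 5.94 to 6.29. The used row of Klhl31 differed by 0.18 and its dimmer row by -0.18, so the rows disagreed in direction. The used row gave 0.0050 without P467L replicate 1 and 0.41 without non-transgenic replicate 1. Klhl38 differed by 0.19, with 5.57 to 5.69 in P467L and 5.19 to 5.79 in non-transgenic artery, and Kbtbd12 by -0.051. Of 17 measured striated muscle markers 10 had higher, 6 lower and 1 equal means, with a median difference of 0.0042. Tied values enter this median, since 9 of the 17 held 1 value on 4 or more arrays (52.9%, against 20.0% of all rows). The summed log2 levels of all 17 were 106.01 to 108.13 in P467L and 105.16 to 105.66 in non-transgenic artery. These sums did not overlap, but without Casq1, a calsequestrin, they were 97.54 to 99.57 in P467L and 97.93 to 98.24 in non-transgenic artery and did. Casq1 differed by 1.10 (limma, adjusted p = 0.863), Tnni2, a fast troponin gene, by -0.15 (limma, adjusted p = 1) and the creatine kinase gene Ckm by 0.0083. Myl1, with Casq1 and Tnni2 the 3 markers of smallest p, differed by 0.38 with overlap. It was at 6.52, 6.26 and 5.65 in P467L artery, against 5.69 to 5.82 in non-transgenic artery. The part of striated muscle in the adaptor values was not tested.

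The other 20 adaptors are given as a range. They were Btbd3, Btbd6, Btbd11, Btbd16, Btbd17, Kbtbd2, Kbtbd3, Kctd4, Kctd6, Kctd7, Kctd9, Kctd14, Kctd15, Kctd18, Klhl10, Klhl15, Klhl24, Klhl26, Klhl28 and Klhl36. Their differences ran from -0.055 to 0.086, with 13 higher, 6 lower and 1 equal, and their smallest unadjusted p was 0.586 (limma, adjusted p = 1 for each).

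The rest of the ligase was looked at beside the adaptors. Of 23 measured genes of the Cullin-3 core, including the machinery that attaches and removes the activating NEDD8 tag, 9 had higher and 14 lower means in P467L artery, 0 passed, and the median difference was -0.0225. Cul3 was at 9.63, 9.83 and 9.43 in P467L artery, against 9.92, 9.51, 9.61 and 9.57 in non-transgenic artery. The P467L mice again spanned most of the non-transgenic range. Rbx1, the RING subunit, differed by 0.046, and Nedd8 by -0.0092. The 3 core genes of smallest p were Dcun1d3, a helper of NEDD8 transfer, at -0.145, Gps1, a subunit of the COP9 signalosome that strips NEDD8, at -0.20, and Senp8, a NEDD8 protease, at 0.29.

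Of 13 measured adaptors under other symbols 7 had higher and 6 lower means, 0 passed, and the median was 0.0067. Keap1, the sensor that holds the antioxidant factor NRF2 in check, was at 6.52, 6.50 and 6.37 in P467L artery, against 6.52, 6.52, 6.57 and 6.75 in non-transgenic artery. Its highest P467L value equalled its lowest non-transgenic ones, the difference was -0.13 (limma, adjusted p = 1), and the NRF2 gene Nfe2l2 differed by -0.11. Rcbtb1 differed by -0.080 and Enc1 by 0.028. Rhobtb1 was not analysed here. Of 29 measured substrates or partners 10 had higher, 18 lower and 1 equal means, 0 passed, and the median was -0.0075. In Tfap2b alone among these the groups did not overlap, at 5.51 on all 3 P467L arrays against 5.33 to 5.48 in non-transgenic artery, a difference of 0.0725 (limma, adjusted p = 1). Of the 29 substrates or partners, 14 held 1 value on 4 or more arrays (48.3%, against 20.0% of all rows), which draws their median toward 0.

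Variation between mice of the same genotype was larger than the difference between genotypes for most adaptors. In 40 of 52 the difference was smaller than the pooled SD within groups (76.9%, against 79.0% of all rows). The range over the 7 arrays had a median of 0.365 for adaptors, 0.48 for all rows and 0.34 for rows with 1 symbol, and it was widest for Klhl2 (1.15), Klhl31 (0.95) and Klhl28 (0.93). Klhl28, singled out after its values were seen, was at 8.07, 8.15 and 7.22 in P467L artery, against 8.0, 7.52, 7.63 and 7.76 in non-transgenic artery. P467L mice held both the highest and the lowest value. Without P467L replicate 3 its difference was 0.38 (limma, unadjusted p = 0.0459), against 0.086 with all arrays. Klhl24, an adaptor for a skin keratin, had the same order of extremes at 9.6, 9.86 and 9.29 in P467L artery, against 9.84, 9.48, 9.55 and 9.50 in non-transgenic artery.

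**Figure D3:**
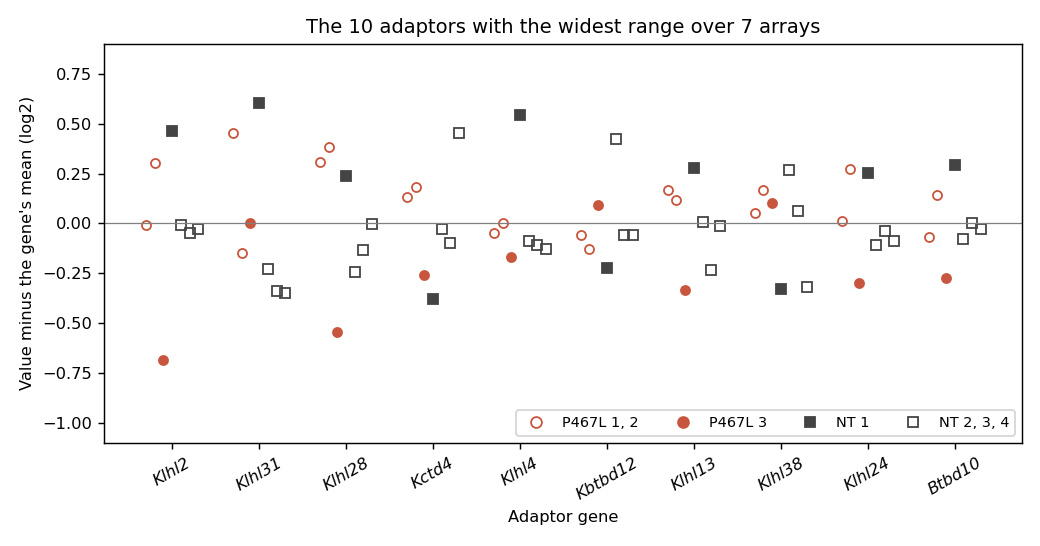
The 10 adaptors with the widest range, each array's log2 value minus the gene's mean over 7 arrays (vertical axis), with P467L arrays as circles, non-transgenic (NT) arrays as squares, and P467L replicate 3 and NT replicate 1 filled. In Klhl2, Klhl4, Klhl13 and Btbd10 P467L replicate 3 is lowest and NT replicate 1 highest, and in Klhl28 and Klhl24 both ends are P467L arrays.

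Some arrays stood at the ends more often than others. Non-transgenic replicate 2 was the sole highest array in 14 of the 48 adaptors that have one (29.2%, against 13.7% of such rows overall). Non-transgenic replicate 1 was so in 11 (22.9%, against 20.9%) and P467L replicate 2 in 10 (20.8%, against 19.0%), both near the share over all rows. P467L replicate 3 was the lowest array, alone, in 16 of the 52 adaptors (30.8%, against 24.8% of all rows). In 11 adaptors (21.2%, against 15.5% of all rows) it was lowest while non-transgenic replicate 1 or P467L replicate 2 was highest: Btbd10, Kctd9, Kctd10, Kctd15, Kctd20, Klhl2, Klhl4, Klhl13, Klhl20, Klhl24 and Klhl28. This pattern was chosen after the values were seen and has no test. In the Cullin-3 core it held for 12 of 23 genes (52.2%), among them Cul3, Rbx1, Uba3 and Nae1. The median deviation of the core genes from their own means was 0.0014, 0.16 and -0.23 in P467L replicates 1 to 3, and 0.21, -0.011, -0.050 and -0.060 in non-transgenic replicates 1 to 4. For the adaptors these medians were 0.0071, 0.0029 and -0.0050 in P467L and 0.0086, 0.0064, -0.045 and -0.0029 in non-transgenic artery, nearer 0 than the core's on P467L replicates 2 and 3 and non-transgenic replicate 1. Tied values enter these medians: over the 40 adaptors without 1 value on 4 or more arrays they were 0.013, 0.039 and -0.068 in P467L and 0.026, 0.0021, -0.078 and -0.010 in non-transgenic artery, and 22 of the 23 core genes are free of such ties. Non-transgenic replicate 3 was below the gene's mean in 38 of 52 adaptors (73.1%, against 57.6% of all rows), and it was the sole highest array in 0 of the 48, against 6.86% of such rows overall.

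**Figure D4:**
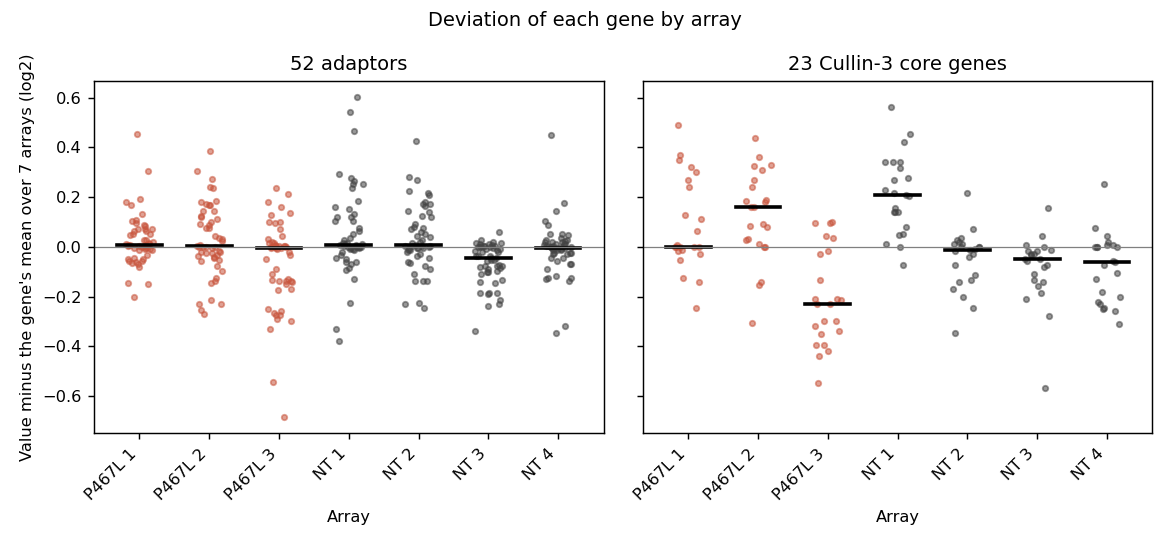
Each point is 1 gene on 1 array, as its log2 value minus its own mean over 7 arrays (vertical axis), for the 52 adaptors (left) and the 23 Cullin-3 core genes (right), with P467L arrays before non-transgenic (NT) arrays and a bar at the median. Core gene medians run from -0.23 (P467L 3) to 0.21 (NT 1), and adaptor medians from -0.045 (NT 3) to 0.0086 (NT 1).

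Markers of other cell types varied between arrays as well. The median deviation of 9 measured adipocyte markers was 0.56 in non-transgenic replicate 1, with -0.17 to -0.023 elsewhere, and that of 15 macrophage markers was 0.36 in P467L replicate 2, with -0.17 to 0.053 elsewhere. Summed log2 levels were 60.96 to 63.21 in P467L and 61.23 to 68.91 in non-transgenic artery for adipocyte markers, and 99.94 to 107.36 against 99.84 to 103.32 for macrophage markers. Genotype differences had a median of -0.24 for the adipocyte markers (1 higher, 8 lower), 0.14 for macrophage markers (14 and 1), -0.11 for 13 smooth muscle markers (1 and 12) and 0.080 for 14 fibroblast markers (12 and 2), with 0 genes passing. Without non-transgenic replicate 1 the adipocyte median was -0.050 (3 higher, 6 lower), without P467L replicate 2 the macrophage median was 0.0575 (10 and 5), and without non-transgenic replicate 2 the fibroblast median was 0.027 (10 and 4). With 1 array left out the smooth muscle median ran from -0.165 (without P467L replicate 2) to -0.075 (without P467L replicate 1). Between 11 and 13 of the 13 smooth muscle markers stayed lower. The 3 of these markers with the smallest p were Des, Myocd and Smtn, which differed by -0.28, -0.40 and -0.18. Medians were 0.010 for 15 endothelial, 0.022 for 11 nerve, 0.026 for 11 lymphocyte and -0.0083 for 7 gut epithelial markers, again with 0 passing. Groups also did not overlap in the endothelial marker Gja4 (-0.24), the gut epithelial marker Lgals4 (-0.33) and the fibroblast marker Dcn (0.27). The part of these cells in the adaptor values was not tested.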

How the data were processed

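Deposited values are log2 expression, 1 per array and row, made by the authors with Affymetrix Power Tools and RMA on mm9, per the submitters' processing notes, with versions and probe set level not given in the sources used here. Rows were named by the platform annotation, and all 52 adaptor symbols matched RefSeq's GRCm38 table through their Entrez identifiers, with 0 updated. Promoters are RefSeq's. The table held 0 sample columns beside those of the 7 arrays.

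The test was limma 3.58.1 (R 4.3.3) on all 23332 rows, using lmFit and eBayes without covariate or filter, and p-values were adjusted by Benjamini-Hochberg across every row, with 0.05 as the threshold. The fit had 1.01 prior degrees of freedom and a median standard error of 0.117 on the log2 scale. A check on simulated data with independent noise required only that median estimates lie near the true size. It is no measure of power in these arrays. With 3 against 4 mice an exact two-sided permutation p cannot go below 0.0571, so none is given.

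Named with values were the 8 adaptors of smallest p in each direction, those of 4 roles (among them striated muscle, WNK kinases, and G protein and GABA-B receptor; the summary of the other is not reported here), up to 3 in each other role, and up to 3 genes per list. The members, lists and alternatives were chosen with earlier results of these data known. Klhl28, Klhl24, Kbtbd2 and some partners and markers were named after their values were seen. Alternatives were a further quantile normalization, median centring, filters on the lowest 25% and 50% of rows, trended robust moderation, array weights, a replicate block, rows with 1 symbol, rows without ties and each array left out. Marker sums without Casq1 and marker medians without each array were added after seeing the data.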

Additional observations from a re-analysis of the deposited data

Results flagged for a closer look

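In 12 of the 32 named adaptors 1 non-transgenic mouse stood far from the other 3 (Dixon's test at its critical value of 0.829 for 4 samples). Chance passes about 1 in 20 groups of untied values, but in 6 of the 12 the other 3 mice shared 1 value, so that any departure passes. The same held in 17 of all 52 adaptors (32.7%), 19.1% of all rows and 3746 of the 14996 rows with 1 symbol, and some of the 32 were chosen by their p. The array was non-transgenic replicate 2 in 5 cases, with Kctd2 at 6.36, Kctd5 at 6.52, Kctd8 at 6.4, Klhl18 at 6.32 and Klhl25 at 6.23, each above the other 3. It was replicate 1 in 4 cases, with Klhl2 at 7.0, Klhl31 at 6.89 and Klhl4 at 6.85 above the others, and Kctd19 at 5.80 below them. Replicate 3 was low in Klhl11 (5.21) and Klhl23 (7.54), and replicate 4 in Klhl7 (8.03). The group of 3 P467L mice was not put to this test.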

How the results depend on the processing

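Under every alternative run, limma called 0 rows and 0 adaptors at an adjusted p of 0.05. The count of adaptors at an unadjusted p of 0.05 was 0 except with array weights, where it was 3 (Klhl23, Kctd1 and Kctd2), without P467L replicate 1 (1, Klhl25) and without P467L replicate 3 (1, Klhl28), so that with 1 array left out it ran from 0 to 1. The adaptors' median difference ran from -0.028 (without non-transgenic replicate 3) to 0.0175 (without P467L replicate 3) with 1 array left out, and from -0.0075 to 0.0043 under the other settings. Of the 32 named adaptors, 17 kept their direction under each alternative run on them and Klhl1 had equal means without P467L replicate 2; only 6 of these 18 were in every alternative, since filters remove rows. Array weights were 3.54, 0.46 and 0.33 for P467L replicates 1 to 3, and 0.75 to 1.69 for non-transgenic arrays. In that setting P467L replicate 1 therefore dominated its group. With array weights the used row of Klhl31, highest of the P467L arrays in replicate 1 (6.74), was at 0.53. The 3 adaptors listed with array weights and the turns given below share this limit. In 30 of the 32, leaving out some array moved the difference by over 1.5 times or turned it. With array weights the direction turned for Kbtbd4 (0.021), Kctd12 (0.026), Kctd13 (0.080), Klhl13 (0.16), Klhl7 (-0.0046) and Klhl9 (0.041). The sample titles number the replicates and do not say whether equal numbers pair mice. Deviations of same-numbered mice from their group means correlated at 0.12, -0.20 and -0.090 across rows. Differently numbered mice were not compared in this way, so these values cannot settle it. The replicate block left 0 calls and turned Kctd13 (0.010). With 1 array left out, ranges that included both directions were -0.17 to 0.030 for Btbd7, -0.0067 to 0.030 for Btbd9, -0.13 to 0.083 for Kbtbd12, -0.10 to 0.050 for Kbtbd4, -0.037 to 0.085 for Kctd10, -0.070 to 0.025 for Kctd12, -0.11 to 0.050 for Kctd13, -0.16 to 0.0075 for Kctd8, -0.12 to 0.13 for Klhl13, -0.44 to 0.0525 for Klhl2, -0.14 to 0.0625 for Klhl20, -0.19 to 0.037 for Klhl4, -0.010 to 0.105 for Klhl7 and -0.040 to 0.067 for Klhl9. The cause of these turns was not tested. Filters on dim rows left 46 and 29 of the adaptors, and leaving out tied rows left 40. Without detection calls the level at which an adaptor becomes measurable is not known here.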
